A study of Mus musculus with 6 samples.

Results

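The genes described here are 38 genes of cholesterol and fatty acid metabolism, chosen by name among the 24015 gene symbols counted by RNA sequencing of the mouse arcuate nucleus (ARC). They comprise 16 sterol synthesis enzymes, of which 7 act in the mevalonate pathway and 9 between squalene and cholesterol, 5 regulators of sterol synthesis, 7 genes of sterol transport and turnover, and 10 genes of fatty acid synthesis. The ARC was microdissected from 3 control females with the genotype Esr1fl/fl, whose *Esr1* alleles carry loxP sites and no Cre acts, and from 3 mutant females with the genotype Esr1fl/fl;Nkx2-1-Cre. All 6 samples thus carried the floxed alleles, and all came from adults with no treatment named. The labels give a mixed CD-1, 129P2 and C57BL/6 background, whereas the methods give CD-1 and 129P2 for this line. The heat map legend of the study gives an age of 15 weeks, and its methods give 11 to 20 weeks. In the mutants Cre is driven by *Nkx2-1*, which is active across the mediobasal hypothalamus and not in the ARC alone, so the deletion reached neighbouring nuclei as well. Whether samples were single animals or pools was not given in the sources used here. The comparison was that of mutant with control ARC, with the sterol genes set beside the fatty acid genes and both beside the genes of myelin.

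Brain cholesterol is made locally, because lipoproteins of the blood do not cross the blood-brain barrier. Acetyl-CoA is converted to mevalonate and squalene, squalene is closed to lanosterol, and lanosterol is trimmed to cholesterol. When sterols are low, SCAP escorts the SREBP proteins from the endoplasmic reticulum to be cleaved, and the released part enters the nucleus and activates these genes, SREBP2 mainly those of cholesterol and SREBP1 mainly those of fatty acids, whereas the INSIG proteins hold SCAP back. Neurons dispose of excess cholesterol by hydroxylation through CYP46A1. Myelin, the membrane that oligodendrocytes wrap around axons, is rich in cholesterol and long-chain lipids and takes a large part of the lipid made in the brain, while astrocytes supply cholesterol to neurons in particles carrying apolipoprotein E.

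Promoter sequences of these genes were searched for known motifs, apart from the counts. Of the 38 members, 29 had at least 1 promoter in the RefSeq table used here (assembly GRCm38.p6, 300 bases around each start, 38 member promoters in all). A CCAAT box, the site of the factor NF-Y, was present on either strand in 24 of the 38 member promoters, or 63.2%, against 37.4% of all 32851 promoters. The GGGCGG box of Sp1 was in 29 of 38 (76.3%) against 35.7%. Sterol enzyme promoters held the CCAAT box in 12 of 16 and GGGCGG in 13 of 16, and fatty acid gene promoters each of them in 4 of 8. The core of the sterol regulatory element, TCAC and CCAC with any 1 base between them, was in 1 member promoter, that of *Hmgcs1*, and in 1.24% of all promoters. The palindrome to which ERα binds, GGTCA and TGACC with 3 bases between them, was in none of the 38 and in 0.07% of all promoters. All promoters include those of genes not expressed in the ARC, and no set matched for expression or base content was compared. The higher shares of CCAAT and GGGCGG are thus not shown to be particular to lipid genes. A match of letters is not a shown binding site, and its absence from this window says nothing of the factor. The 250 bases before the start are printed for *Hmgcs1*, the member with the sterol regulatory element core, and for *Cyp51* and *Hsd17b7*, the members with the smallest p-values in the comparison below, which lay in opposite directions. Capitals mark the motifs named above on either strand, so that CCAAT can read ATTGG and GGGCGG can read CCGCCC, and no marked motifs overlap.
Hmgcs1, chr13:119690101-119690350, plus strand: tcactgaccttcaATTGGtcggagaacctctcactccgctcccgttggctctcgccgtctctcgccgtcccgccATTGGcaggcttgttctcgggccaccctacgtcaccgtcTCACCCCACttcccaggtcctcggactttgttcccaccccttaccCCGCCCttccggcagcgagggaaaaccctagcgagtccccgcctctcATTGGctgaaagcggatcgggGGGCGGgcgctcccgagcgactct
Cyp51, chr5:4104698-4104947, minus strand: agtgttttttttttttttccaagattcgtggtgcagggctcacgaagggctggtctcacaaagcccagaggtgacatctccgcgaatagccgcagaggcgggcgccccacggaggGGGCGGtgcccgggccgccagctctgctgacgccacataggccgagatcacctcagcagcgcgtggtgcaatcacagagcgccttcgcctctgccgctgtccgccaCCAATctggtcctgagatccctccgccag
Hsd17b7, chr1:169969206-169969455, minus strand: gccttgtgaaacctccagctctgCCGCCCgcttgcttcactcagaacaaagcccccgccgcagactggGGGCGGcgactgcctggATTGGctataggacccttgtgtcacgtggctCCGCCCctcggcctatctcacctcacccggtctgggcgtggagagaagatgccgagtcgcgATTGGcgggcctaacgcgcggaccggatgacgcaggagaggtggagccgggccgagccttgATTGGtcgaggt
Within these bases *Hmgcs1* held the sterol regulatory element core 1 time, the CCAAT box 3 times and GGGCGG 2 times. *Cyp51* held 1 CCAAT and 1 GGGCGG, and *Hsd17b7* 3 of each.

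Read counts on genes totalled between 11792440 and 17877137 per sample. The deposited counts are given here as CPM, the count scaled to the TMM-normalized library size, and 3 counts correspond to between 0.174 and 0.247 CPM, a floor that covers counting error only, since the reads carried no molecular identifiers and repeated reads of 1 molecule cannot be recognised. *Esr1* itself measured 64.5, 57.5 and 48.5 CPM in the controls against 11.8, 9.55 and 7.06 CPM in the mutants, with a log2 fold change of -2.59 (SE 0.18, adjusted p = 0.000884, edgeR's quasi-likelihood test), so the labels held. The arcuate markers *Agrp*, *Pomc*, *Npy* and *Cited1* were between 26.2 and 267 CPM in all 6 samples. Genes of the ventromedial nucleus next to it were also detected and varied more, *Nr5a1* from 3.05 to 24.2 CPM, *Fezf1* from 1.14 to 52.3 CPM and *Cbln1* from 11.7 to 77.7 CPM. *Tac1*, also of that nucleus, separated the genotypes, at 40.1 to 59.97 CPM in controls and 28.1 to 38.6 CPM in mutants, and the part of the dissection in the values of the members was not tested. Astrocyte marker levels differed between samples within both genotypes, with control 2 and mutant 3 the highest.

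No member of the cholesterol and fatty acid set changed past the threshold. Of 38 members, 37 passed the filter on low counts, and the smallest adjusted p-value among them was 0.3722 in edgeR's quasi-likelihood test, that of *Cyp51*. Over all genes, 18 of 15236 tested genes, or 0.118%, had an adjusted p-value under 0.05, 9 higher and 9 lower in the mutants. Before adjustment 3 of the 37 members had a p-value under 0.05 (*Cyp51*, *Hsd17b7* and *Srebf1*) against 8.85% of all tested genes, and the DESeq2 test also passed 0 members (smallest adjusted p = 0.3446), although it called 191 genes, or 1.26% of those it gave an adjusted p-value. In 3 members all mutant values lay above all control values, and in 4 all lay below. The same separations occurred in 7.88% of all tested genes above and in 7.88% below. These shares give no sign that the members moved more often than other genes.

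The size of any difference was bounded closely for most members. The log2 fold changes, mutant minus control, lay between -0.36 (*Idi1*) and 0.39 (*Elovl1*), with a median of -0.00086 against 0.0036 over all tested genes. For 36 of 37 members the 95% interval lay inside a 2-fold change in either direction, and for 29 it lay inside a 1.5-fold change. *Idi1*, with 10 to 30 counts per sample, was the exception, with an interval from -1.21 to 0.49. A p-value that misses the threshold does not show equal levels, and these intervals give what 3 samples per genotype allow. In bulk tissue, fewer cells of a type and less RNA per cell cannot be told apart.

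**Figure D1:**
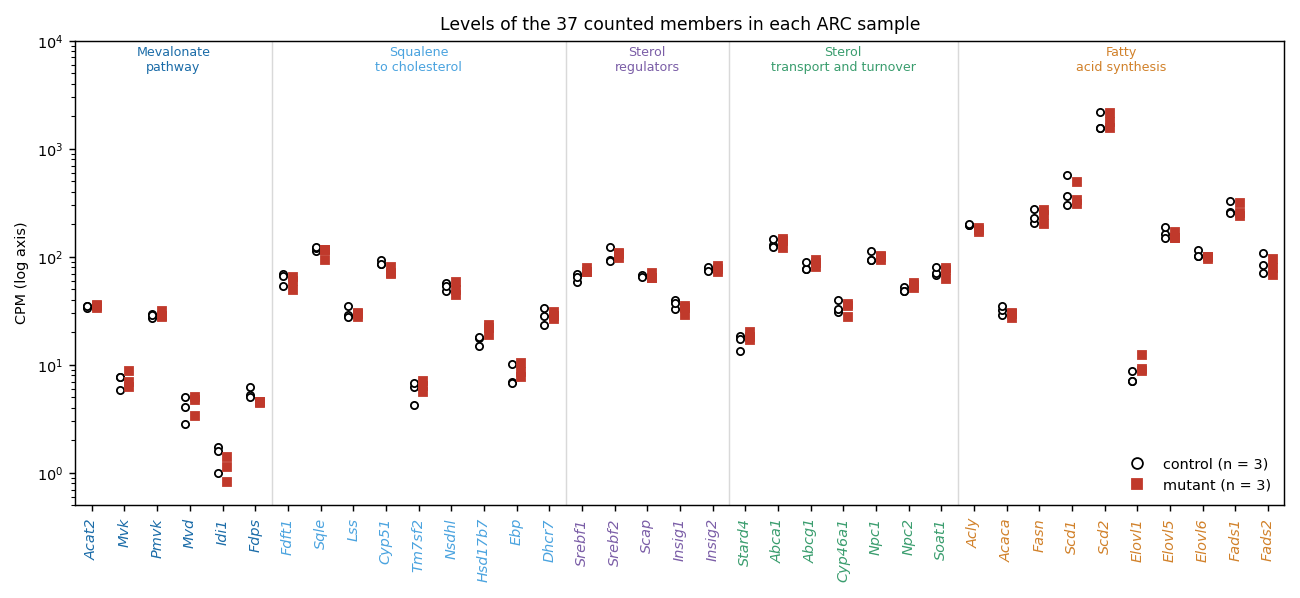
Levels of the 37 counted members in each sample, in CPM on a log axis, with open circles for the 3 controls and filled squares for the 3 mutants, grouped and coloured by role. The levels ran from 0.825 CPM for *Idi1* to 2188 CPM for *Scd2*, and the circles and squares overlap for 30 of the 37 genes.

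Most fatty acid genes had higher levels per length than the sterol enzymes. Counts were divided by the exon length of each gene to give RPKM, averaged over the 6 samples, which compares genes with one another but rests on a reference annotation matched by symbol. That length joins the exons of all transcripts of a gene. It was 5546 bases for *Sqle* and 10787 for *Lss*, whose longest transcripts had 2758 and 4667 bases. For *Scd1* and *Scd2* both lengths were equal. The ranks and ranges given here hold for this length only, since levels per transcript length were not calculated. The median level was 40.8 RPKM for the fatty acid genes and 4.05 RPKM for the sterol synthesis enzymes, with 13.1 RPKM for the regulators and 15.1 RPKM for the transport genes. *Scd2*, a stearoyl-CoA desaturase, ranked highest of the 37 at 328 RPKM, and the next 6 were *Scd1* (81.7 RPKM), *Fads1* (80.1), *Fads2* (55.9), *Elovl5* (45.8), *Acly* (35.7) and *Fasn* (24.1). All 7 belong to the fatty acid class, while *Elovl6* (17.3), *Elovl1* (3.25) and *Acaca* (3.01) lay within the range of the sterol enzymes, which reached 21.2 RPKM for *Fdft1*. The sterol median is the value of *Fdps*, a gene that shares much of its sequence with other places, as described below. Among neighbours in this order *Scd1* and *Fads1* overlapped across samples, *Scd1* having an SD of 29.3 RPKM among controls and *Fads1* of 12.2. The lowest were *Tm7sf2* (1.74 RPKM) and *Idi1* (0.447 RPKM), both of the sterol pathway.

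Mevalonate pathway genes gave 0 calls among 6 tested, with a median log2 fold change of 0.026. *Acat2*, a cytosolic thiolase that supplies acetoacetyl-CoA, was among the steadiest of all members, from 33.4 to 35.8 CPM over the 6 samples. Of the kinases and decarboxylase that follow, *Mvk*, *Pmvk* and *Mvd* had log2 fold changes of 0.06, 0.041 and 0.13, and their samples overlapped between genotypes. *Fdps*, which makes farnesyl diphosphate, had control values of 5.23, 6.22 and 5.02 CPM and mutant values of 4.46, 4.52 and 4.53 CPM. The 3 mutants lay below the 3 controls by a log2 fold change of -0.29 (SE 0.19, adjusted p = 0.723, edgeR). *Idi1*, the isopentenyl diphosphate isomerase, was at 1.00, 1.75 and 1.58 CPM in controls and at 0.825, 1.13 and 1.40 CPM in mutants, which overlap.

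No read was counted on *Hmgcs1*, the synthase that makes HMG-CoA, in any of the 6 samples. The limit that a count of 0 allows is 3 counts, or 0.174 to 0.247 CPM, although the gene is used by most cells and *Acat2*, the enzyme before it in the pathway, was detected. The symbol is listed in the count files but has no gene in the GENCODE annotation of NCBIM37, and all 251 windows of 50 bases from its RefSeq promoter occurred in that assembly, with 2 copies of the first window, both on contigs not placed on a chromosome. *Ccl28*, *Nim1k* and *Zfp131*, neighbours of *Hmgcs1* in RefSeq that were picked after their values were seen, gave 201 to 244 counts per sample for *Ccl28* and 0 in all 6 samples for both others. The first promoter window of *Ccl28* had 1 copy, and those of *Nim1k* and *Zfp131* had 2 copies each, all on contigs not placed on a chromosome. Whether sequence present in copies led to the 0 was not tested, and no level of *Hmgcs1* is given.

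Several further members, some of them among the lowest in level, share much of their sequence with other places in the genome. Reads were 50 bases long, so every 50-base window of the longest transcript of 37 members was looked up in NCBIM37. No window occurred elsewhere for 23 members, and under 10% did for 8. In 6 members over 20% did, with 84.6% for *Idi1* (mostly on chromosome 2), 65.3% for *Acaca* (chromosome 12), 63.2% for *Fdps*, 37.3% for *Acat2*, 32.5% for *Insig1* (chromosome 3) and 22.2% for *Fdft1*. *Acaca* encodes acetyl-CoA carboxylase, which makes malonyl-CoA and lies between *Acly* and *Fasn* in the pathway, yet its level was 3.01 RPKM against 35.7 and 24.1 RPKM. A 50-base stretch of its coding exons is printed as 1 of 3200 such windows with a single further copy, at chr11:84113577-84113626 on the plus strand and again letter for letter at chr12:10161954-10162003, and a read of these bases cannot be assigned to either place.
Acaca coding window: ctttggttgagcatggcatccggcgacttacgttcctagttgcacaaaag
How the counting treated reads with several matches is not given in the sources used here, and the part of shared sequence in these levels was not tested. The exons of *Fdft1* (26.9% of bases, with *Ctsb* on the opposite strand), *Scap* (18.9%) and *Tm7sf2* (15.3%) also overlapped those of other genes, and the library kit did not mark the strand, so their counts are less certain.

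**Figure D2:**
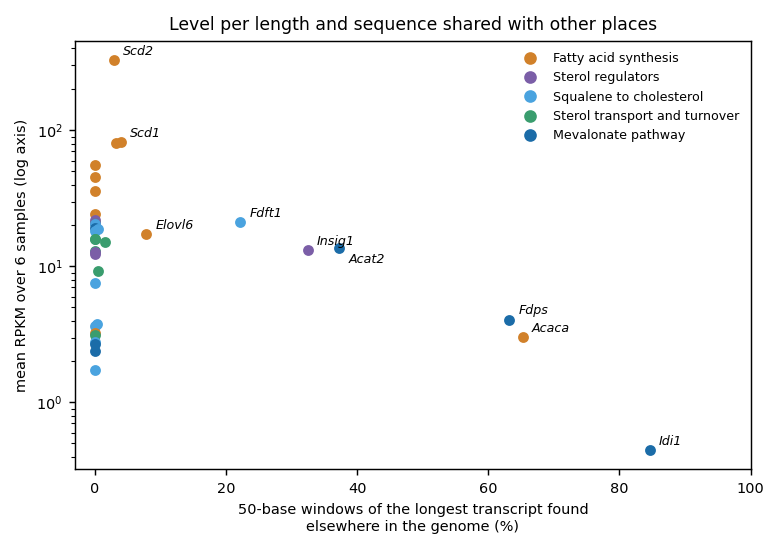
Mean level over the 6 samples in RPKM (log axis) against the percentage of 50-base windows of the longest transcript found elsewhere in NCBIM37, 1 point for each of 37 members, coloured by role. *Idi1*, with 84.6% of windows elsewhere, had the lowest level at 0.447 RPKM, and *Acaca* and *Fdps* sit at 65.3% and 63.2% with 3.01 and 4.05 RPKM. *Acat2*, *Insig1* and *Fdft1*, at 37.3%, 32.5% and 22.2%, had higher levels of 13.6, 13.1 and 21.2 RPKM. *Tm7sf2*, *Mvd*, *Mvk* and *Lss*, at 0%, had low levels of 1.74, 2.38, 2.7 and 2.77 RPKM.

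Enzymes from squalene to cholesterol showed differences in both directions and 0 calls among 9 tested, with a median log2 fold change of -0.067. *Cyp51* (NCBIM37 chr5:4081145-4104746), the lanosterol demethylase, was at 86.4, 92.5 and 86.4 CPM in controls 1, 2 and 3 and at 71.1, 69.7 and 79.7 CPM in mutants 1, 2 and 3. All mutants lay below all controls, with a log2 fold change of -0.27 (SE 0.086, 95% interval -0.46 to -0.08, adjusted p = 0.3722, edgeR). *Hsd17b7* (chr1:171879666-171899372), a ketoreductase of the same stretch of the pathway, went the other way, at 14.9, 17.6 and 18.3 CPM in controls and 18.9, 21.9 and 23.4 CPM in mutants. Its log2 fold change was 0.34 (SE 0.13, 95% interval 0.04 to 0.64, adjusted p = 0.4893, edgeR). An exact two-sided permutation test gave p = 0.1 for each of them, the smallest it can give with 3 against 3.

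*Sqle*, squalene epoxidase and a rate-setting step, was at 112, 122 and 124 CPM in controls and at 93.2, 115 and 115 CPM in mutants. Only mutant 1 lay apart, below the other 5 samples, while the other 2 mutants lay within the control range, and the log2 fold change of -0.15 had an interval from -0.37 to 0.07. *Fdft1*, *Lss* and *Nsdhl* had log2 fold changes of -0.13, -0.067 and -0.076, and *Tm7sf2*, *Ebp* and *Dhcr7* of 0.14, 0.17 and 0.013. None of these 6 separated the genotypes. *Dhcr7*, the reductase of the last step, varied from 23.4 to 33.4 CPM among controls, a range that held all 3 mutants.

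*Srebf1* was the only regulator of the 5 whose samples separated by genotype, and it did not pass adjustment. It encodes SREBP1, lies on chr11:60012591-60036083, and was at 68.7, 58.1 and 64.4 CPM in controls and at 78.5, 72.0 and 73.1 CPM in mutants. All mutants were above all controls (log2 fold change 0.23, SE 0.091, adjusted p = 0.5005, edgeR). *Srebf2*, which encodes SREBP2, was at 93.7, 123 and 91.8 CPM in controls and at 108, 106 and 96.9 CPM in mutants, with the mutants inside the control range and a log2 fold change of 0.006. *Insig1*, itself an SREBP target, was at 32.8, 40.0 and 37.3 CPM in controls and 29.1, 33.7 and 34.7 CPM in mutants, which overlap, with a log2 fold change of -0.17 (95% interval -0.43 to 0.08). *Scap* and *Insig2* differed by -0.00086 and 0.014 on the log2 scale, and *Insig2* was the steadier of the INSIG genes, with an SD among controls of 3.08 CPM on a mean of 76.4 CPM. Of some genes known as SREBP targets, *Sqle*, *Insig1*, *Acly* and *Acaca* had log2 fold changes between -0.17 and -0.15, and *Fasn* and *Scd2* of 0.018 and 0.038, none past the threshold. These are a selection. The 15 tested sterol enzymes, which SREBP2 activates as well, had 8 log2 fold changes above 0 and 7 below, from -0.36 to 0.34.

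Sterol transport and turnover gave 0 calls among 7 genes, and none separated the genotypes. *Abca1*, the exporter that loads cholesterol onto lipoproteins and a target of the LXR receptors, was at 129, 145 and 122 CPM in controls and at 147, 120 and 141 CPM in mutants. The mutants included both the lowest and the highest of the 6 values, and the log2 fold change was 0.04 (95% interval -0.19 to 0.27). *Cyp46a1*, the neuronal cholesterol hydroxylase, was at 31.0, 40.1 and 33.2 CPM in controls and 27.5, 36.9 and 34.9 CPM in mutants, with a log2 fold change of -0.07 (95% interval -0.38 to 0.24). Its order followed the total counts of the samples, with control 2 highest and mutant 1 lowest in both. *Abcg1*, a further exporter, *Npc1* and *Npc2*, which release cholesterol from lysosomes, *Soat1*, which esterifies it, and *Stard4*, which carries it in the cytosol, had log2 fold changes between -0.025 and 0.17.

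Fatty acid synthesis genes had the most negative median of the classes, -0.11 (0.063 without control 2), with 7 of 10 log2 fold changes below 0 and 0 calls. *Acly* (chr11:100337667-100389314), which makes cytosolic acetyl-CoA from citrate, was at 198, 199 and 200.3 CPM in controls and at 186, 178 and 169 CPM in mutants. The controls agreed closely, with a coefficient of variation of 0.524%, and all mutants lay below them (log2 fold change -0.16, SE 0.074, adjusted p = 0.5613, edgeR). *Acaca* was at 28.7, 32.5 and 35.4 CPM in controls and at 29.9, 27.4 and 30.0 CPM in mutants, which overlap. *Fasn*, the fatty acid synthase itself, was at 205, 276 and 228 CPM in controls and at 202, 242 and 274 CPM in mutants. The ranges of *Fasn* coincided almost wholly, and its log2 fold change was 0.018 (95% interval -0.29 to 0.33).

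The desaturases *Scd2* and *Scd1*, which lie near each other on chromosome 19 and introduce the first double bond into saturated fatty acids, varied more between samples of a genotype than between genotypes. *Scd2* (chr19:44368166-44381354) was at 1564, 2188 and 1550 CPM in controls and at 1566, 1752 and 2126 CPM in mutants. *Scd1* (chr19:44468941-44482199) was at 302, 572 and 363 CPM in controls and at 311, 333 and 490.2 CPM in mutants. Control 2 and mutant 3 were the highest of their genotypes for both genes, and the log2 fold changes were 0.038 for *Scd2* (95% interval -0.33 to 0.40) and -0.12 for *Scd1* (95% interval -0.87 to 0.62). *Scd2* alone made up 52.1% to 56.3% of the CPM summed over the 10 fatty acid genes, so sums of the class follow it. The ratio of *Scd1* to *Scd2* lay between 0.19 and 0.261 and overlapped between genotypes. *Fads1* and *Fads2*, desaturases of polyunsaturated fatty acids, had log2 fold changes of -0.057 and -0.12.

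Elongases differed in direction. *Elovl1*, which extends saturated very long chains of the kind found in myelin lipids, was at 8.78, 7.16 and 7.03 CPM in controls and at 12.2, 9.11 and 8.79 CPM in mutants. It had the largest log2 fold change of the tested members, 0.39 (SE 0.19, 95% interval -0.03 to 0.80, adjusted p = 0.5877, edgeR), but control 1 at 8.778 and mutant 3 at 8.793 CPM nearly touched. *Elovl6*, which extends palmitate, was at 102, 116 and 102 CPM in controls and at 99.6, 100.4 and 96.1 CPM in mutants, all below the controls by a log2 fold change of -0.11 (adjusted p = 0.7602, edgeR). *Elovl5*, an elongase of polyunsaturated chains, had a log2 fold change of -0.11 with overlapping samples.

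**Figure D3:**
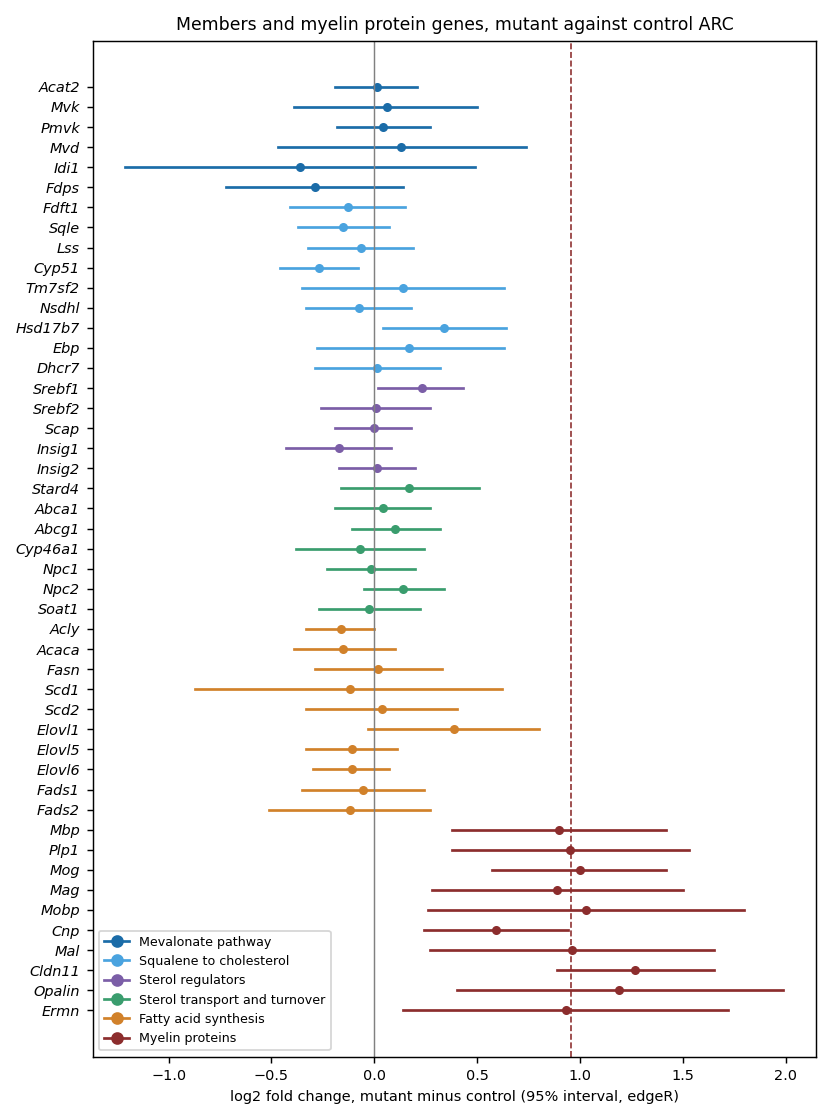
Log2 fold change of 37 members and 10 myelin protein genes, mutant minus control, with 95% intervals from edgeR's quasi-likelihood fit on 3 samples per genotype; colours give the role, the solid line marks 0 and the dashed line the median of the myelin protein genes, 0.96. The members lie between -0.36 and 0.39 and no member interval reaches the dashed line, while the 10 myelin protein genes lie between 0.59 and 1.27. Some member intervals reach 0.59, the lowest of these.

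The sterol and the fatty acid genes each overlapped between genotypes. The median log2 fold change was 0.011 over the 15 tested sterol enzymes (-0.11 without control 1) and -0.11 over the 10 fatty acid genes (0.063 without control 2), a difference of 0.12 that was not tested. Calculated per sample as the median over genes of the log2 level relative to the control mean, the sterol enzymes were at -0.13, 0.07 and 0.06 in the controls and at -0.14, 0.03 and -0.01 in the mutants. The fatty acid genes were at -0.13, 0.21 and -0.09 in controls and at -0.16, -0.13 and 0.16 in mutants. In both classes control 2 was the highest of the 6 samples and mutant 1 the lowest.

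Myelin protein genes lay higher in the mutants, and no difference of that size was found among the 37 tested members. All 10 myelin protein genes were higher in every mutant than in every control, against 7.88% of all tested genes, with a median log2 fold change of 0.96, and *Cldn11*, a tight junction protein of myelin, rose past the threshold (log2 fold change 1.27, SE 0.17, adjusted p = 0.03127, edgeR). The other 9 did not pass in edgeR, and 4 of the 10 passed in DESeq2. These genes share a cell type, the oligodendrocyte, so they are not 10 independent observations, whereas 7.88% is a share of single genes. An exact two-sided permutation test gave p = 0.1 for each of the 10. Among 8 genes of myelin lipid synthesis, *Aspa*, which frees acetate from N-acetylaspartate in oligodendrocytes, rose (0.95, adjusted p = 0.04453, edgeR), and *Fa2h* and *Ugt8a*, which make the hydroxylated and galactosylated lipids of myelin, had log2 fold changes of 0.93 (adjusted p = 0.316) and 0.88 (adjusted p = 0.1887) with no overlap of the genotypes. *Gal3st1*, which sulfates the product of *Ugt8a* to the myelin lipid sulfatide, had a log2 fold change of 0.16 at 0.646 to 1.47 CPM (95% interval -0.75 to 1.07), and the more general sphingolipid genes *Cers2*, *Degs1*, *Sgms1* and *Sgms2* lay between -0.0039 and 0.11. No 95% interval among the 37 tested members reached 0.96, the median of the myelin proteins, which has an error of its own that is not included here. The lowest of the 10 myelin protein genes was *Cnp*, at 0.59. The intervals of *Elovl1* (upper limit 0.80), *Mvd* (0.74), *Hsd17b7* (0.64), *Tm7sf2* (0.63), *Ebp* (0.63) and *Scd1* (0.62) did reach that value.

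Summed levels of the fatty acid genes and of the sterol enzymes overlapped between genotypes, while that of the myelin protein genes did not. The CPM summed over the 10 fatty acid genes was 2904, 4017 and 2976 in controls and 2864, 3126 and 3774 in mutants, and that of the sterol enzymes was 458, 516 and 511 in controls and 428, 480 and 488 in mutants. The sum of the 10 myelin protein genes was 836, 1317 and 697 CPM in controls and 1863, 1779 and 1716 CPM in mutants. The ratio of the fatty acid to the myelin sum was 3.47, 3.05 and 4.27 in controls and 1.54, 1.76 and 2.2 in mutants, and that of the sterol to the myelin sum was 0.548, 0.391 and 0.733 against 0.23, 0.27 and 0.284. These ratios restate the difference in the myelin sum, since their numerators overlapped. Of the marker lists of other cells, 3 of 7 microglia markers (*Cx3cr1*, *C1qb* and *Csf1r*) were also higher in every mutant, and the list summed to between 155 and 170 CPM in controls and between 208 and 212 CPM in mutants, with 0 of 7 past the threshold in edgeR and 2 in DESeq2. Of 5 oligodendrocyte precursor markers *Vcan* was lower in every mutant (log2 fold change -0.62, adjusted p = 0.2327 in edgeR and 0.004428 in DESeq2), and the other 4 overlapped, with log2 fold changes from 0.041 to 0.21. The tanycyte marker *Vim* was higher in every mutant (0.24, adjusted p = 0.3519, edgeR), as 1 of 6 in its list. The part of oligodendrocyte, precursor, tanycyte or microglia content in the values of the members was not tested.

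**Figure D4:**
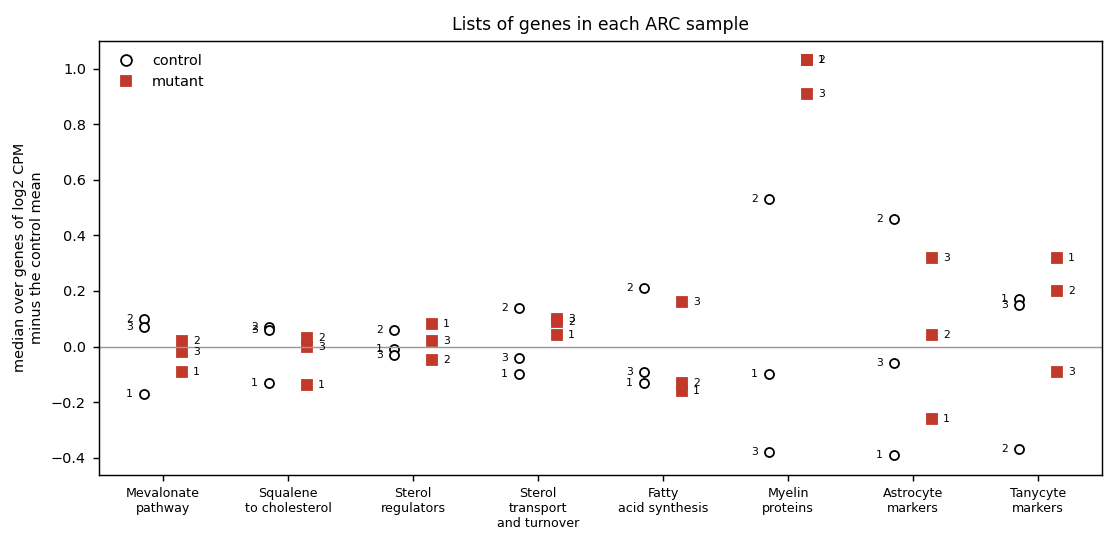
Median over the genes of each list of log2 CPM minus the control mean, 1 point per sample, with open circles for controls, filled squares for mutants and the replicate number beside each. For the 5 classes of members the genotypes overlap, for the myelin proteins the mutants lie between 0.91 and 1.03 and the controls between -0.38 and 0.53, and for the astrocyte markers control 2 and mutant 3 are highest, while control 2 is lowest for the tanycyte markers.

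Across samples *Scd2*, *Scd1* and other fatty acid genes followed the astrocyte markers and also the total counts, relations that did not pass adjustment. The mean log2 CPM of 7 astrocyte markers, among them *Slc1a2* and *Aqp4*, was 7.0, 7.82 and 7.19 in controls and 7.19, 7.30 and 7.65 in mutants. *Scd2* followed it with Pearson's r = 0.96 (permutation p = 0.004167, adjusted p = 0.2056) and Spearman's rho = 0.94 (permutation p = 0.01667, adjusted p = 0.5396) over the 6 samples. *Scd1* gave r = 0.96 (permutation p = 0.008333, adjusted p = 0.2056) and rho = 0.83 (permutation p = 0.05833, adjusted p = 0.5396). Pearson's r was also 0.93 for *Fasn*, 0.91 for *Fads2* and 0.91 for *Fads1* (permutation p = 0.01111, 0.01389 and 0.03056, adjusted p = 0.2056, 0.2056 and 0.3212). Spearman's rho for these 3 was 0.83, 0.71 and 0.60 (permutation p = 0.05833, 0.1361 and 0.2417, adjusted p = 0.5396, 0.563 and 0.6167). These relations were picked from 74, those of 37 members with the astrocyte markers and with the total counts, after the values were seen, and none passed adjustment. With the orders of 6 samples permuted, a single relation among 74 could not have passed, so that outcome decides little. Without control 2 and mutant 3, the samples farthest from the median, r was 0.68 for *Scd2*, 0.56 for *Scd1*, 0.73 for *Fasn*, 0.40 for *Fads2* and -0.33 for *Fads1*, so the relations rest largely on those samples, and 3 samples per genotype are too few for a value within a genotype. *Scd2*, *Scd1*, *Fasn*, *Fads2* and *Fads1* also followed the total counts, with r = 0.72, 0.69, 0.78, 0.79 and 0.76. Spearman's rho for them was 0.77, 0.60, 0.89, 0.71 and 0.83, for *Fasn* and *Fads1* above that with the astrocyte markers. Without control 2 and mutant 1 their r was 0.56, 0.08, 0.43, 0.00 and 0.24. *Cyp46a1* against the total counts gave r = 0.95 (permutation p = 0.008333, adjusted p = 0.2056) and rho = 0.94 (permutation p = 0.01667, adjusted p = 0.5396), with r = 0.68 without control 2 and mutant 1. The parts of astrocyte content and of total counts in these levels were not tested further.

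Other genes of the same pathways, from lists of names, also gave 0 calls in edgeR. Of 24 further sterol genes 23 were tested and 0 passed (smallest adjusted p = 0.5079, edgeR), with a median log2 fold change of 0.016. The most abundant per length, with *Msmo1* not ranked for want of an exon length, were *Apoe* (log2 fold change 0.20, 95% interval -0.05 to 0.44), *Lrp1* (-0.066), *Abca2* (0.07) and *Ggps1* (-0.22). Of 29 further fatty acid genes 27 were tested and 0 passed (smallest adjusted p = 0.2589, edgeR, that of *Hacd3*), with a median of -0.018. The most abundant per length were *Tecr* (-0.12), *Hacd3* (-0.29), *Acsl3* (-0.10) and *Acsl4* (0.045). A pair of elongases was picked after their values were seen. *Elovl2*, which makes long polyunsaturated chains, was at 22.4, 27.9 and 28.0 CPM in controls and 16.6, 18.2 and 20.8 CPM in mutants, all below (-0.49, SE 0.13, adjusted p = 0.2738, edgeR). *Elovl7*, an elongase of saturated very long chains, was at 19.97, 19.95 and 14.7 CPM in controls and 26.1, 23.9 and 25.7 CPM in mutants, all above (0.47, SE 0.14, adjusted p = 0.3152, edgeR).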

How the data were processed

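RNA of the microdissected ARC of 3 control and 3 mutant females was amplified with the Ovation RNA-Seq System V2 from 50 ng per the labels and sequenced as single-end 50 bp reads. The authors mapped the reads with TopHat2 2.1.0, counted reads on exons with HTSeq 0.6 and deposited counts for 24015 gene symbols, without normalization. The submitters' notes name the build mm9 and the methods NCBI37/mm10; positions given here are those of GENCODE on NCBIM37, matched by symbol, and promoters are those of RefSeq on GRCm38.p6.

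Counts were tested with edgeR 4.0.16 (R 4.3.3) by the quasi-likelihood test with robust dispersions, TMM normalization and the default filter, passed by 15236 genes. Adjusted p-values are Benjamini-Hochberg values over these genes, with a threshold of 0.05. Intervals are 95% intervals of the fit. DESeq2 1.42.0, limma voom (limma 3.58.1), RLE normalization, filters of at least 1 count in any sample and of at least 10 counts in every sample, a replicate block and each sample left out in turn were alternatives. The scripts were tested on simulated data. Chi-square statistics per degree of freedom within genotypes were 6.85 to 21.3, so no samples agreed within sampling noise.

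Members and lists were chosen with earlier results of these data known. Values per sample are given for members that pass in edgeR or DESeq2, members whose mutants all lie on one side of the controls, and *Sqle*, *Srebf1*, *Srebf2*, *Insig1*, *Abca1*, *Cyp46a1*, *Fasn*, *Scd1*, *Scd2* and *Acaca*; other genes are *Esr1* and, of each further list, those past the threshold or up to 4 with the highest level. *Idi1* and *Hmgcs1* were added after their values were seen. *Cx3cr1*, *C1qb*, *Csf1r*, *Vcan*, *Vim*, *Elovl2*, *Elovl7* and the myelin lipid genes other than *Aspa* were named outside this rule, with their values known. The markers of the arcuate and ventromedial nuclei were also named outside it. No member list was given a set test.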

Additional observations from a re-analysis of the deposited data

How the results depend on the processing

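Under all 12 alternative fits 0 of 37 members passed the threshold, and the smallest adjusted p-value of a member in any fit was 0.2386, that of *Cyp51* with the replicate block. The count over all genes depended on the method more than that of the members. It was 18 with edgeR, 191 with DESeq2 (97 higher and 94 lower), 106 with a filter of at least 1 count in any sample and 123 with the replicate block, and between 7 (without mutant 3) and 46 (without control 2) with 1 sample left out. It was 9 without mutant 2. The same-numbered samples correlated at 0.281, 0.0466 and -0.00264 in their deviations from the genotype means. Samples of different numbers were not correlated for comparison, so these values do not decide whether the numbers are pairs. The main fit did not take them as pairs. The median of the sterol enzymes, 0.011, lay between -0.11 (without control 1) and 0.014 with 1 sample left out, and was -0.095 without mutant 3. That of the fatty acid genes lay between -0.15 and 0.063, and was above 0 only without control 2. Among 222 member values under the 6 other alternatives 4 changed sign, *Srebf2* at -0.0024 with DESeq2 and at -0.0075 with at least 1 count in any sample, *Acat2* at -0.00046 under that filter, and *Scap* at 0.0038 with at least 10 counts in every sample. With 1 sample left out 38 of 222 values changed sign, in members whose log2 fold change was at most 0.14 in size. Their ranges were -0.095 to 0.16 for *Mvk*, -0.066 to 0.34 for *Mvd*, -0.014 to 0.035 for *Acat2*, -0.016 to 0.071 for *Pmvk*, -0.11 to 0.15 for *Dhcr7*, -0.13 to 0.043 for *Lss*, -0.04 to 0.28 for *Tm7sf2* and -0.19 to 0.0076 for *Nsdhl*. Among regulators they were -0.069 to 0.16 for *Srebf2*, -0.051 to 0.023 for *Scap* and -0.03 to 0.055 for *Insig2*. In sterol transport they were -0.16 to 0.048 for *Cyp46a1*, -0.065 to 0.084 for *Npc1*, -0.019 to 0.12 for *Abca1* and -0.091 to 0.069 for *Soat1*. Among fatty acid genes they were -0.09 to 0.14 for *Fasn*, -0.092 to 0.22 for *Scd2*, -0.36 to 0.19 for *Scd1*, -0.18 to 0.074 for *Fads1* and -0.26 to 0.052 for *Fads2*. The cause of these changes was not tested.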
